A study of Mus musculus with 9 samples.

Results

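The transcriptome of mouse islets held at the basal glucose concentration of the study, 11.8 mM, was described from 3 libraries, out of 9 in the whole series, chosen by their titles. The RNA was that of pancreatic islets isolated from ICR mice, which are outbred, and cultured for 3 days in RPMI medium with fetal bovine serum and antibiotics. The medium of this group was the unmodified one. The study set it as its normal glucose condition beside cultures at 20 mM and 35 mM, which are not compared here. The treatment text gives 25 mM for the highest concentration, which has no bearing on these 3 libraries. Islets were taken from 9 mice in all, and nothing in the labels ties a library to a mouse of its own, so the spread between libraries may be technical. No transgene, deletion or drug is named for any of them. Each library was made from 3 ng of purified RNA by CEL-Seq2, a method that primes on the poly(A) tail and counts tags at the 3′ end of transcripts, and each was sequenced as 3 barcoded sub-libraries that were summed here. The table lists 22048 genes by Ensembl identifier, and every one of them entered the ranking.

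Pancreatic islets are clusters of endocrine cells within the exocrine pancreas. Beta cells make insulin, alpha cells glucagon, delta cells somatostatin and PP cells pancreatic polypeptide, each as a precursor that is cut by proteases inside dense-core granules and released by calcium-triggered exocytosis. Mice carry a pair of insulin genes, Ins1 and Ins2. Islet preparations also hold vascular, stromal and immune cells, and some exocrine tissue usually stays attached to them after isolation.

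For 3 of the most abundant hormone genes, Ins1, which stood second to Ins2, Gcg (glucagon) and Sst (somatostatin), the 250 bases before the start site are shown to place the most abundant transcripts in the genome. They come from RefSeq on GRCm38.p6, in which 7 of the 8 hormone genes examined were matched (Ins1, Gcg, Sst, Iapp, Ppy, Pyy and Ghrl, not Ins2). The Ins1 window lies at chr19:52264047-52264296 on the plus strand, the Gcg window at chr2:62483654-62483903 and the Sst window at chr16:23890845-23891094, both on the minus strand. Capitals mark matches on either strand to 4 motifs: the letters TATAAA found near the start of many genes, GCCATCTG as in the E-box of insulin genes, CTAATG as in the core of the site bound by homeodomain factors of islets, and TGACGTCA, the cyclic AMP response element, which reads the same on both strands.
Ins1: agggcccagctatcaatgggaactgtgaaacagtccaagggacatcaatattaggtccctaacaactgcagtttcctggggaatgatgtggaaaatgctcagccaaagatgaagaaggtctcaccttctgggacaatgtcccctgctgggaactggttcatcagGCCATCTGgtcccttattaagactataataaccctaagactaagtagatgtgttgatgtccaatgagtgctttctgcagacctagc
Gcg: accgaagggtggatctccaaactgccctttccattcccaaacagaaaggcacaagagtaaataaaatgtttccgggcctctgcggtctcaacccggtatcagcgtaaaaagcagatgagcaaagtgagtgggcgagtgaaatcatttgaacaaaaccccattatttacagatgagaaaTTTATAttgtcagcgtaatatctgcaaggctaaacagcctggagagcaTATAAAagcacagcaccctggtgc
Sst: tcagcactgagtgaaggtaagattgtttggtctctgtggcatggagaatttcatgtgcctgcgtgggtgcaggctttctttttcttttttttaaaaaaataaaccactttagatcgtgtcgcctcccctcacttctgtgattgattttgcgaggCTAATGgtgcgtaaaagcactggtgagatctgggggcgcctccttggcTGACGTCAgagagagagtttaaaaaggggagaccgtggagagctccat
The Ins1 window holds GCCATCTG 86 to 79 bases before the start. The Gcg window holds TATAAA at 24 to 19 bases and its reverse complement at 72 to 67 bases before the start. The Sst window holds CTAATG at 96 to 91 bases and TGACGTCA at 48 to 41 bases before the start. These distances are from the RefSeq start. In GENCODE M21 the Sst gene reaches 23890958, inside this window, so by that annotation both motifs lie within the gene. Over 32851 RefSeq windows of this length, TATAAA occurred in 12.4%, GCCATCTG in 1.11%, CTAATG in 6.36% and TGACGTCA in 1.55%. These are matches of letters, and no binding was measured.

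Replicates 1, 2 and 3 held 3303046, 4559561 and 3801020 counts in genes, and 13527, 13923 and 13366 genes had at least 1 count. A count of 3 in these libraries corresponds to 0.908, 0.658 and 0.789 CPM (the count of a gene per 1000000 gene counts of its library), the limit that a count of 0 allows. In all, 12362 genes had a count in every library, 2542 in 1 or 2 libraries and 7144 in none. The defining markers of endocrine islet cells were present, since Ins1, Ins2, Gcg, Sst and Ppy stood among the 12 most abundant genes. Because tags are counted at transcript ends, their number does not grow with transcript length, and levels of different genes are set side by side in CPM of tags.

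The counts were concentrated in very few genes. Ins2, Ins1, the mitochondrial mRNA mt-Atp6, Gcg, Sst and Iapp, the gene of islet amyloid polypeptide, each exceeded 10000 CPM on average and together took 60.2% of all gene counts. The next 29 genes, between 1000 and 10000 CPM, took 8.42%. Between 100 and 1000 CPM lay 624 genes with 14.2%, and between 10 and 100 CPM lay 4762 genes with 14.4%. The 5931 genes from 1 to 10 CPM held 2.60%, and 3552 genes below 1 CPM held 0.131%.

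The degree of concentration differed between the libraries. Of the gene counts, 90% lay in the 2131 most abundant genes of replicate 1, 1706 of replicate 2 and 1558 of replicate 3. The 10 most abundant genes held 60.2%, 63.7% and 67.1%. With Ins1 and Ins2 taken out, 90% of the remaining counts lay in 3996, 3812 and 3836 genes, so that replicates 2 and 3, which differed with insulin, were close to each other without it.

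**Figure D1:**
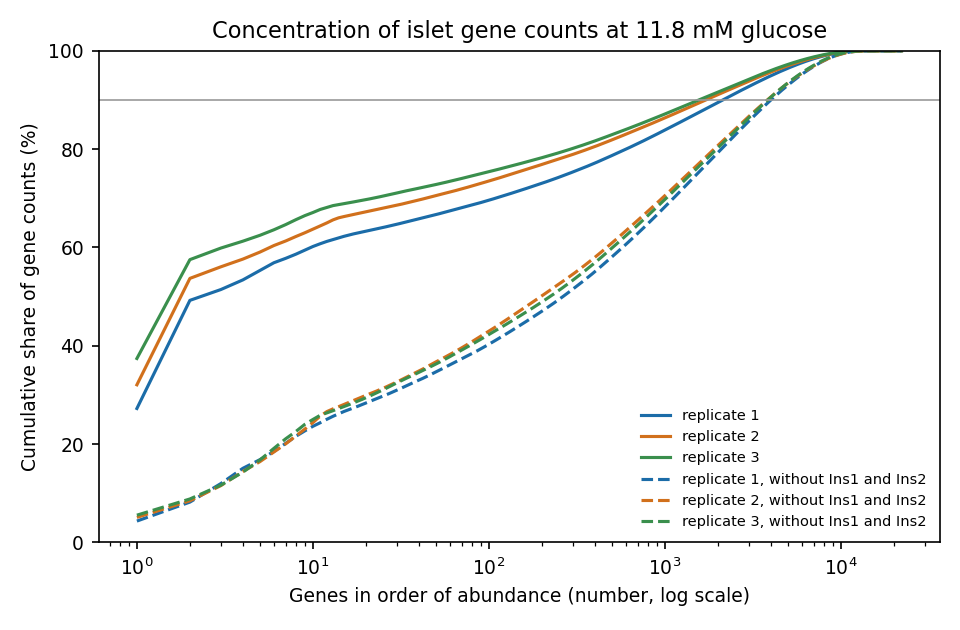
Cumulative share of gene counts (%) against the number of genes in order of abundance (log scale), for the 3 libraries at 11.8 mM glucose, with all genes (solid lines) and without Ins1 and Ins2 (dashed lines); the grey line marks 90%. With all genes the 2 most abundant genes alone reach 49.2% to 57.5%, and without the insulin genes the curves of the libraries lie close together.

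The 20 most abundant genes by mean were, in order, Ins2, Ins1, mt-Atp6, Gcg, Sst, Iapp, mt-Nd2, mt-Nd4, mt-Nd1, Chga, Rpl4, Ppy, Ctrb1, mt-Cytb, Pcsk1n, Pyy, Pcsk2, mt-Co2, Sec11c and Rpl17. They comprise 7 hormone genes, 6 mitochondrially encoded mRNAs, 3 genes of granule proteins or their processing, 2 ribosomal protein genes, a subunit of the signal peptidase (Sec11c) and a digestive protease of the exocrine pancreas (Ctrb1). Not every step in this order was larger than the spread. Among others, Gcg and Sst, Sst and Iapp, mt-Nd2 and mt-Nd4, and Pcsk2, mt-Co2 and Sec11c overlapped in range over the libraries, whereas the steps from Ins1 to mt-Atp6, from mt-Atp6 to Gcg and from Iapp to mt-Nd2 were seen without overlap in range.

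Insulin transcripts took 49.2% of the gene counts in replicate 1, 53.7% in replicate 2 and 57.5% in replicate 3, a mean of 53.5% ± 4.15 (SD, n = 3). Ins2 (chromosome 7, 142678656 to 142743381, minus strand) stood at 272422, 320597 and 374103 CPM, and Ins1 (chromosome 19, 52264297 to 52265476, plus strand) at 219887, 216421 and 201049 CPM. The libraries with a larger insulin share thus had more Ins2, while Ins1 by CPM was lowest in the library with the most insulin. Scaled by the trimmed mean of M-values (TMM, which sets library sizes by the bulk of genes), Ins1 stood at 194400, 224692 and 219037 and was lowest in replicate 1, the library with the least insulin. That TMM value of replicate 1 includes a sub-library with a low Ins1 share, described below. It was not computed without that sub-library, so the TMM order of Ins1 over the libraries may rest on it. In all 3 libraries Ins2 was the higher gene, 1.24, 1.48 and 1.86 times as high as Ins1. Few windows of 50 bases in the last 300 bases of their transcripts occurred exactly in any other gene, 0% for Ins1 and 1.45% for Ins2. Near matches were not examined, so how well reads of the pair were told apart in counting was not tested.

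In replicate 1 the order of the insulin genes rested on a single sub-library. Ins1 took 26.1% and 26.5% of the counts in sub-libraries 1 and 2 of that replicate but 11.8% in sub-library 3 (95% Wilson interval 11.8% to 11.9%, which covers counting error only). Without sub-library 3, Ins1 stood at 263120 CPM and Ins2 at 252762 CPM in replicate 1, a ratio of Ins2 to Ins1 of 0.961. The ratio was 0.974 and 0.950 in sub-libraries 1 and 2, 2.69 in sub-library 3, 1.43 to 1.53 in the sub-libraries of replicate 2 and 1.59 to 2.14 in those of replicate 3. In the same sub-library 3, alignments that were not unique made up 35.2% of all counted reads, against 13% to 16.9% in the other 8. Its part in the Ins1 value was not tested. Over the 3 libraries the insulin share was 54.3% without this sub-library.

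**Figure D2:**
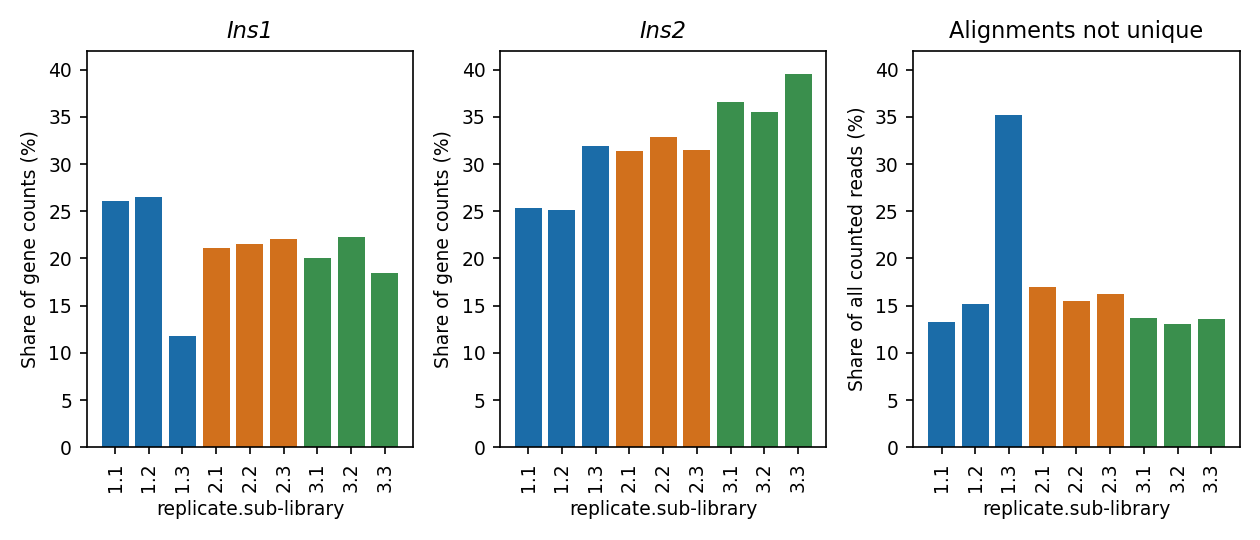
Share of gene counts (%) taken by Ins1 and by Ins2, and share of all counted reads (%) whose alignments were not unique, in each of the 9 sub-libraries, labelled by replicate and sub-library number and coloured by replicate. Sub-library 1.3 has the lowest Ins1 share, 11.8%, and the highest share of alignments that were not unique, 35.2%.

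Few departures of this kind were listed. The count expected in a sub-library was set by the other sub-libraries of the same sample. This expected count was 100 or more in 7993 combinations of gene and sub-library. A departure was listed only where the other sub-libraries lay close to each other, a condition not applied to the 7993. Departures without such closeness were thus left out. The search listed 7 departures at least 2-fold lower and 3 at least 2-fold higher than expected. The largest was Pdia6, a protein disulfide isomerase of the endoplasmic reticulum, with 412 counts in sub-library 1 of replicate 2 where 1088 were expected, followed by Ins1. Papss2, Anks4b, D11Wsu47e, Top2a and Tcta were the others below, and Actb, Fam162a and Gm10800 those above.

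The hormones other than insulin took 6.18%, 5.19% and 4.11% of the gene counts in replicates 1, 2 and 3, in the reverse order of insulin. Insulin is part of that total, so these shares are not free of each other. Of the counts outside Ins1 and Ins2 the other hormones took 12.2%, 11.2% and 9.67%. Gcg (chromosome 2, 62474530 to 62483650) was counted at 19148, 15672 and 14000 CPM, a mean of 16273 ± 2627. Sst (chromosome 16, 23889573 to 23890958) was counted at 19589, 14261 and 10028 CPM, a mean of 14626 ± 4791. Iapp (chromosome 6, 142298423 to 142303961), whose product is released together with insulin, was counted at 15752, 13307 and 11938 CPM. These 3 genes were each highest in replicate 1 and lowest in replicate 3, by CPM and by TMM, and their ranges by CPM overlapped with one another. Of the 5421 genes with at least 10 CPM, 66% were highest in replicate 1 and 2677 lowest in replicate 3 by CPM. By TMM 2016 were highest in replicate 1 and 1763 lowest in replicate 3. The SD over the mean was 16.1% for Gcg, 32.8% for Sst and 14.1% for Iapp by CPM. By TMM it was 5.23%, 22.4% and 3.70%.

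Ppy, the gene of pancreatic polypeptide, stood at 4738, 6106 and 3627 CPM, below Iapp and above Pyy in each library. Pyy, the gene of peptide YY, stood at 2545, 2535 and 1504 CPM. By CPM Ppy was highest in replicate 2, while Pyy was nearly level between replicates 1 and 2. By TMM scaling Pyy (2250, 2632 and 1638) and Ins1 were highest in replicate 2 as well, for Ins1 with sub-library 3 of replicate 1 included. Ghrl, the gene of ghrelin, had 1.51, 0 and 0.263 CPM, values within or close to the limit that a count of 0 allows. Per 100 insulin counts there were 3.89, 2.92 and 2.43 counts of Gcg and 3.98, 2.66 and 1.74 counts of Sst. The ratio of Gcg to Sst was 0.978, 1.10 and 1.40, so that the order of glucagon and somatostatin in the list of abundant transcripts changed between libraries. In bulk RNA, fewer cells of a type and less RNA per cell cannot be told apart.

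**Figure D3:**
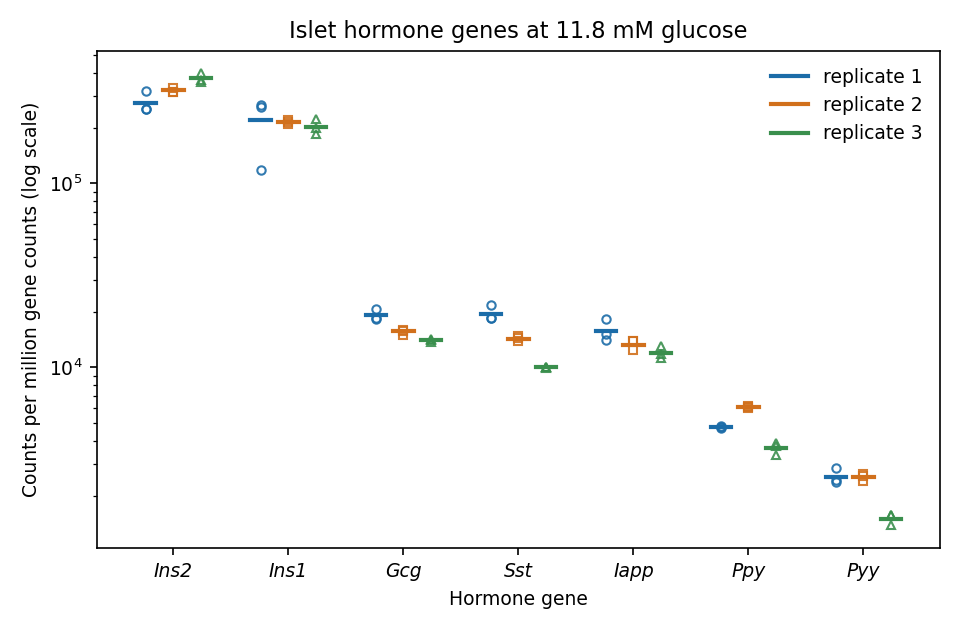
Levels of the 7 abundant hormone genes in CPM (log scale), for each library (bars) and each of its 3 sub-libraries (open symbols), coloured by replicate. Ins2 and Ins1 stand above all others (Ins1 is 13.1 times as high as Gcg by mean), and the Ins1 point of sub-library 3 of replicate 1 lies apart from the other points.

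Other markers of the endocrine cell types were far below the hormones. Among 11 alpha cell markers Gcg held 92.4% of the counts. Ttr, the gene of transthyretin, followed at 1034, 911 and 849 CPM, while the alpha cell transcription factor Irx1 stood at 11.4 ± 3.11 CPM. Among 7 delta cell markers Sst held 97.7%, followed by Rbp4, a retinol-binding protein, at 309, 293 and 249 CPM. Hhex, a transcription factor of delta cells, stood at 3.97 CPM, and Ghsr, the ghrelin receptor, and the alpha cell marker Loxl4 had no count in any library.

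Genes of the dense-core granule and of prohormone maturation, together 30 genes in 3 groups, took 2.44%, 1.88% and 1.83% of the gene counts, a mean of 2.05% ± 0.342 (SD, n = 3). The 30 include Ero1lb, Ero1l and P4hb, enzymes of the endoplasmic reticulum, without which the other 27 took 2.27%, 1.75% and 1.67%. As a share of the counts outside Ins1 and Ins2 the 30 genes took 4.81%, 4.07% and 4.30%. The share was highest in replicate 1, and 21 of the 26 genes of these groups with at least 10 CPM were highest there. Over all 5421 genes of that level 66% were highest in replicate 1. By TMM scaling 14 of the 26 and 2016 of the 5421 were highest in replicate 1, so the size of this lead depended on the scaling.

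Among these groups, the granins and other soluble proteins were the most abundant group, with 1.62%, 1.25% and 1.22% of the gene counts. Chga (chromogranin A, an acidic protein that helps granules to form) stood at 8334, 6504 and 6315 CPM and held 51.8% of the group. Pcsk1n, which encodes proSAAS, an inhibitor of the convertase PC1/3, stood at 3081, 2078 and 1816 CPM. Scg2 (secretogranin II) stood at 1435, 1139 and 1415 CPM. Chgb, Scg3 and Scg5 followed at 876, 844 and 819 CPM by mean and overlapped in range. Scg5, the chaperone of the convertase PC2, was the steadiest of the group by CPM at 837, 796 and 823, though by TMM its CV (SD over mean) was 9.56% against 4.64% for Chga, and Vgf, a precursor of several peptides, was the lowest at 93.2, 77.4 and 45.8 CPM.

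The enzymes that fold and mature prohormones took 0.559%, 0.427% and 0.411%. Pcsk2, the convertase PC2, stood at 2403, 1789 and 1445 CPM, and Pcsk1, the convertase PC1/3 that also cuts proinsulin, at 137, 115 and 118 CPM. Pcsk2 tags outnumbered those of Pcsk1 by 17.5, 15.6 and 12.2 times in the 3 libraries. Ero1lb, the oxidase that drives disulfide formation in the endoplasmic reticulum of beta cells, followed at 1464, 1133 and 1369 CPM. Cpe, the carboxypeptidase that trims the cut ends, followed at 894, 659 and 660 CPM, and Pam, which amidates peptides such as amylin, at 362, 265 and 271 CPM. Exons of Pcsk1n, Pcsk2 and Ptprn overlap genes on the opposite strand, and the strand used in counting is not given in the sources used here, so reads of such partners cannot be told apart.

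Membrane proteins of the granule took 0.263%, 0.206% and 0.198%. Ptprn (IA-2, a phosphatase-like granule protein) was the highest at 874, 618 and 431 CPM. Cltrn (collectrin, which promotes exocytosis) followed at 511, 479 and 450 CPM, and Slc30a8, the zinc transporter that loads granules for insulin crystals, stood at 236, 209 and 244 CPM. By CPM Ptprn was 2.03 times as high in replicate 1 as in replicate 3, whereas Slc30a8 stayed within a CV of 7.95%. The SD of Ptprn was 222 by CPM and 152 by TMM, so the size of this contrast depended on the scaling. Slc18a2, a monoamine transporter, had no count. The 27 genes of exocytosis took 0.273%, 0.204% and 0.203%, led by Syt7, a calcium sensor, at 710, 451 and 518 CPM, and Vamp2, a SNARE protein of the granule, at 503, 370 and 342 CPM. Cplx1 had a single count over the 3 libraries, while its relative Cplx2, the other complexin listed, stood at 310, 277 and 232 CPM.

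Genes by which secretory proteins enter and fold in the endoplasmic reticulum were abundant as well. Translocon, signal recognition and signal peptidase genes took 0.453%, 0.469% and 0.435%, with 41% of that in Sec11c, a catalytic subunit of the signal peptidase, at 1730, 2106 and 1731 CPM. Genes of folding and the unfolded protein response took 0.476%, 0.370% and 0.366%. Pdia6 stood at 1280, 1031 and 1137 CPM, and Hspa5, the chaperone BiP, at 863, 633 and 623 CPM. Of the 18 folding genes with at least 10 CPM, 17 were highest in replicate 1 by CPM and 12 by TMM, against 66% and 2016 of 5421 over all genes. Which of these groups varied less depended on the scaling. The CV of the summed share was 3.79% for the entry genes and 15.4% for the folding genes by CPM, and 10.3% and 4.60% by TMM.

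Genes of glucose sensing and of beta cell receptors were uneven in level. G6pc2, the islet glucose-6-phosphatase, stood at 1150, 1283 and 1459 CPM, rank 27, and held 54.5% of the 21 genes listed. Abcc8, the sulfonylurea receptor subunit of the ATP-sensitive potassium channel, stood at 322, 257 and 229 CPM, and Slc2a2, the glucose transporter GLUT2, at 114, 86.0 and 124 CPM. Kcnj11, which encodes the pore subunit of the same potassium channel, had no count in any library, and Glp1r, the incretin receptor of beta cells, had a single count in replicate 1. None of the 50-base windows of Kcnj11 or Glp1r is shared with another gene. Whether tags of Kcnj11 or Glp1r went unassigned for other reasons was not tested, so these counts do not show that the transcripts were absent. Both genes lie outside the rule for named genes and were chosen after their values were seen.

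Transcription factors of islet cells took 0.152%, 0.112% and 0.123% over 28 genes. Neurod1 was highest at 415, 301 and 303 CPM, followed by Nkx6-1, a beta cell identity factor, at 262, 155 and 203 CPM, and Pax6 at 168, 145 and 159 CPM. Pdx1, which activates the insulin genes, stood at 76.9, 48.5 and 66.8 CPM. Mafa, another activator of insulin transcription (chromosome 15, 75745490 to 75748228), had no count in any of the 3 libraries, with 0 shared windows. At the depth of these libraries a count of 0 allows at most 0.658 to 0.908 CPM for tags assigned to Mafa. This limit covers counting error of reads only. Whether Mafa tags were present but not assigned to the gene was not tested, so the 0 does not show that the transcript was absent.

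Of 20 neuropeptide and gut peptide precursors, 4 had no count and 5 reached 10 CPM. Ucn3, urocortin 3, a marker of mature beta cells, stood at 480, 345 and 423 CPM and held 58.2% of the group. Pdyn, the precursor of dynorphins, stood at 195, 173 and 123 CPM. Vip, the precursor of vasoactive intestinal peptide, stood at 52.4, 11.6 and 2.89 CPM, and the sub-libraries of replicates 1, 2 and 3 did not overlap, with 33.7 to 75.1, 5.54 to 14.3 and 2.65 to 3.32 CPM. Ngfr, a neurotrophin receptor among the Schwann cell and glial markers, was likewise highest in replicate 1 and lowest in replicate 3 at 38.8, 20.6 and 7.10 CPM, as was Sox10, a transcription factor of those cells, at 17.3, 12.3 and 5.00 CPM. Mbp, a myelin protein and the most abundant marker of that list, did not follow this order, at 23.0, 24.6 and 21.8 CPM. The summed share of the 10 markers was 0.0110%, 0.00796% and 0.00497%, and none of them was at 0. The part of such cells in the Vip value was not tested.

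The 13 mRNAs encoded in the mitochondrial genome took 5.70%, 6.07% and 6.51% of the gene counts, a mean of 6.09% ± 0.407 (SD, n = 3). Outside Ins1 and Ins2 the share was 11.2%, 13.1% and 15.3%. By TMM scaling all 13 were highest in replicate 3, against 1835 of the 5421 genes with at least 10 CPM, whereas by CPM 6 were, against 13.9%. mt-Atp6, a subunit of ATP synthase, stood at 22058, 23569 and 23557 CPM and held 37.8% of the group. mt-Nd2, mt-Nd4 and mt-Nd1, subunits of complex I, followed at 9812, 9357 and 7678 CPM by mean, and mt-Nd6, another complex I subunit, was the lowest at 13.3, 19.1 and 28.4 CPM. Windows at the 3′ ends of mt-Atp6 (96.2%) and mt-Co2 (100%) also occur in other annotated genes. Reads whose alignments were not unique were tallied apart from genes, so the levels of mt-Atp6 and mt-Co2 are uncertain and can be too low.

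Nuclear genes of oxidative phosphorylation took 0.497%, 0.503% and 0.481%, far less than the mitochondrial ones. All 43 had a count in every library, and 42 reached 10 CPM. Cox6c stood at 586, 595 and 666 CPM and Cox8a at 587, 648 and 565 CPM, both subunits of cytochrome c oxidase. Their summed share had a CV of 2.33%, against 6.67% for the mitochondrially encoded mRNAs (9.72% and 16.9% by TMM). Mitochondrial ribosomal RNAs were not analysed here.

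Cytosolic ribosomal protein genes, 85 by name, took 3.12%, 3.57% and 3.20%. Rpl4 was the highest at 5612, 6107 and 6204 CPM and held 18.1% of the group, ahead of Rpl17 at 1680, 1640 and 1587 CPM and Rpl26 at 1216, 1312 and 1235 CPM. Of the 77 with at least 10 CPM, 60 were highest in replicate 2, against 20.1% of all genes of that level. By TMM scaling 59 were, against 2030 of 5421. Replicate 2 also held the largest share of acinar transcripts (1.41%), whose part in this was not tested. In 51 of the 85, at least 50% of the 3′ windows also occur in other genes. Reads whose alignments were not unique were tallied apart from genes (21.9%, 16.1% and 13.5% of all counted reads), so the levels of these 51 can be too low. Rpl10l, Rpl39l and Rpl3l, relatives of common subunits, had no count. Among translation factors Tpt1 stood at 1778, 1590 and 1449 CPM and Eef2, the elongation factor that moves the ribosome, at 1350, 976 and 800 CPM.

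Transcripts of exocrine acinar cells differed 3.68-fold between the highest and the lowest library, with a CV of their summed share of 70.3%. The share was 0.557% in replicate 1, 1.41% in replicate 2 and 0.384% in replicate 3, a mean of 0.785% ± 0.552 (SD, n = 3). Of the 31 markers listed with a row, all but Amy2a1 had a count, and all 22 with at least 10 CPM were highest in replicate 2, by CPM and by TMM, against 20.1% (1088 of 5421) of all genes by CPM and 2030 by TMM. Their level there was 3.17 times that of the next library by median, from 2.14 times for Ctrb1 to 5.79 times for Prss1. Ctrb1, chymotrypsinogen B1 rank 13 in abundance, stood at 3573, 7644 and 2004 CPM and held 56.1% of the group. Cpa1, a carboxypeptidase, stood at 484, 1098 and 399 CPM, Cpb1 at 239, 956 and 246 CPM, and Cela1, an elastase, at 287, 896 and 211 CPM.

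The amylase genes Amy2a5 and Amy2a1 were at or near 0, with a single count and none, although 100% of the windows of Amy2a1 are shared with other genes. Within replicate 2 the 3 sub-libraries gave acinar shares of 1.53%, 1.39% and 1.38%, and those of the other replicates lay between 0.373% and 0.615%. The difference between libraries therefore exceeded the spread between sub-libraries. Ctrb1 was more abundant than Pcsk1n in every library.

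Reg family genes, which encode secreted lectin-like proteins of acinar cells and of stressed islets, followed the acinar markers with 0.0472%, 0.158% and 0.0517%, a CV of 73.4%. All 6 with at least 10 CPM were highest in replicate 2. Reg1 stood at 172, 630 and 194 CPM and Reg3b at 176, 569 and 188 CPM. Krt19, a keratin of duct cells, stood at 22.4, 55.5 and 12.4 CPM, while Krt7, the most abundant duct marker, stood at 171, 173 and 127 CPM. Of the 6 duct markers with at least 10 CPM, 5 were highest in replicate 2 by CPM and by TMM, against 1088 and 2030 of 5421 genes. All 6 were lowest in replicate 3 by CPM and 5 by TMM, against 2677 and 1763 of 5421.

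Markers of stromal, vascular and immune cells were low. Fibroblast and stellate cell markers took 0.0549%, 0.0504% and 0.0279%, led by the collagen genes Col3a1 at 240, 202 and 105 CPM and Col1a2 at 119, 108 and 56.3 CPM. Endothelial markers took 0.00288%, 0.00325% and 0.00255%. Pecam1, which encodes an adhesion protein of vessel walls, stood at 4.13 CPM, and none of the 14 endothelial markers reached 10 CPM. Macrophage and other immune markers took 0.0268%, 0.0247% and 0.0228%. Ctss (cathepsin S) stood at 52.7, 36.4 and 50.2 CPM and C1qc, a complement component, at 36.6, 46.3 and 33.9 CPM.

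Of 10 lymphocyte markers 7 had no count, as had all 6 erythroid markers, among them the globin genes Hba-a1 and Hbb-bs. Of 6 adipocyte markers 4 had no count, Adipoq and Lep included. Msln, a mesothelial marker, stood at 39.1, 23.7 and 25.5 CPM, while the other 3 markers of that group were at or near 0. Macrophage markers thus differed little between the libraries, with a CV of 8.10%, and fibroblast markers more, with a CV of 32.5%.

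**Figure D4:**
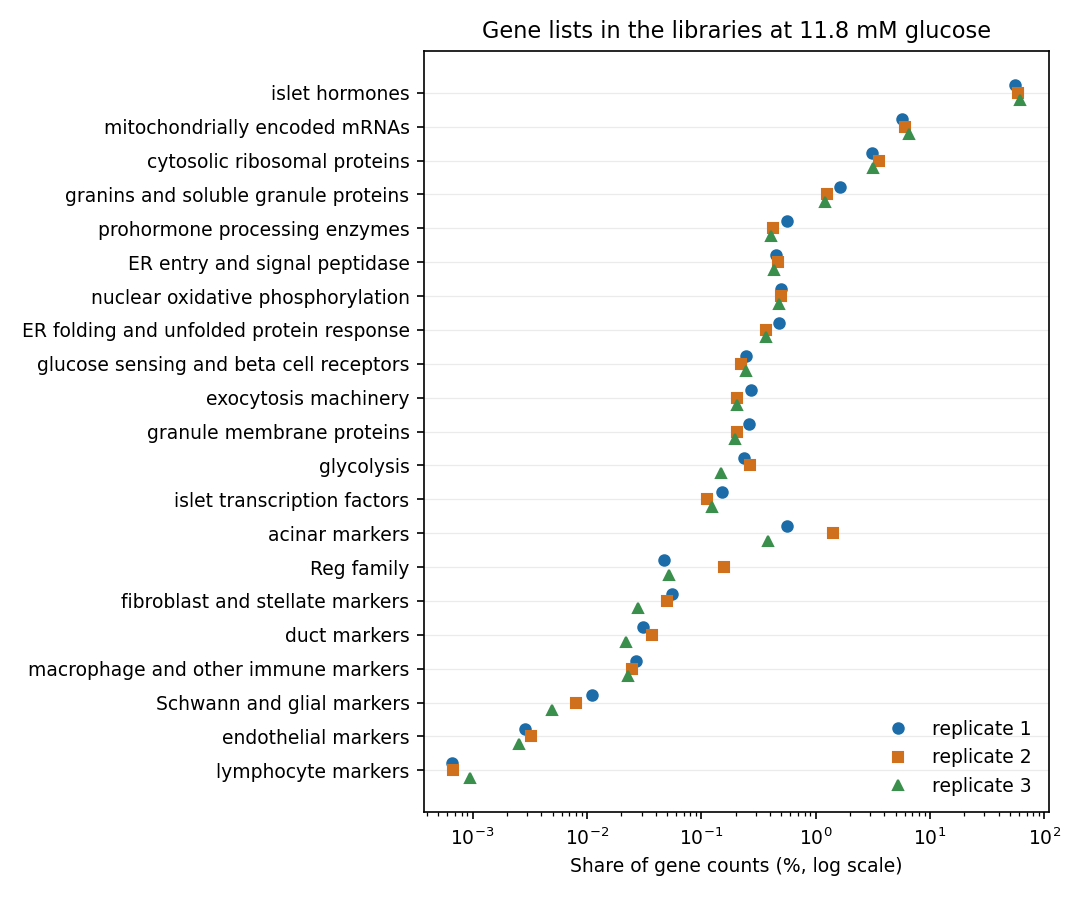
Share of gene counts (%, log scale) taken by 21 gene lists in each of the 3 libraries at 11.8 mM glucose, with a symbol per replicate. Most lists span less than 2-fold over the libraries, and the acinar markers (0.384% to 1.41%) and the Reg family (0.0472% to 0.158%) span more than 3-fold, with replicate 2 highest.

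Glycolysis genes took 0.236%, 0.265% and 0.149%. All 14 with at least 10 CPM were lowest in replicate 3, by CPM and by TMM, against 2677 of 5421 genes by CPM and 1763 by TMM. Pkm, pyruvate kinase, stood at 859, 932 and 564 CPM, Aldoa, an aldolase, at 427, 500 and 267 CPM, and Eno1, an enolase, at 214, 294 and 116 CPM. Ldha, the lactate dehydrogenase that beta cells normally keep low, stood at 30.6, 55.7 and 12.9 CPM. Slc16a1, the lactate carrier kept low in the same way, had 2, 1 and 0 counts, and Slc16a3, another lactate carrier, stood at 7.57, 28.5 and 1.32 CPM. Like the acinar markers, Ldha and Slc16a3 were highest in replicate 2, and the part of acinar cells in these values was not tested.

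The windows of Eno1 are shared with other genes at 87.7% and those of Gapdh at 80.8%, and Gapdh stood at no more than 116, 112 and 63.4 CPM, rank 687. Pgk1, phosphoglycerate kinase, had 4, 9 and 2 counts with 0 windows shared. Both common reference genes were thus below Pkm, Aldoa and Eno1 in this table. Cell cycle genes took 0.0208%, 0.0135% and 0.0112%. Top2a, a topoisomerase of dividing cells, stood at 60.2, 49.8 and 42.1 CPM and Mki67, a marker of proliferation, at 28.2, 9.43 and 10.3 CPM. All 3 cell cycle genes with at least 10 CPM were highest in replicate 1, by CPM and by TMM. Over all 5421 genes of that level 66% were highest there by CPM and 2016 by TMM. The SD of Top2a was 9.11 by CPM and 3.90 by TMM.

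Among the 5421 genes with at least 10 CPM, the median CV over the 3 libraries was 17.9%, against 10.0% that counting error alone would give. Without replicate 1 the median CV was 10.9%. It was 14.7% by TMM scaling. For the 659 genes with at least 100 CPM it was 14.2% by CPM, against 3.96% from counting, so that counting of reads made up a small part of the spread of abundant genes. Reads were not collapsed by molecular identifier, so the sampling of molecules is not covered by that value. Between the sub-libraries of a replicate the median CV at that level was 9.92%. The biological coefficient of variation of edgeR, the spread left after counting error is taken out, was 16.9% between libraries (8549 genes) and 12.1% between sub-libraries of a replicate (6626 genes) as a common value, but 16.5% and 15.3% by the median over genes. For genes with at least 10 CPM the median CV between sub-libraries was 19.8%. A sub-library holds fewer counts than the summed library, so counting error weighs more on CVs between sub-libraries than on those between libraries. Log2 CPM of the library pairs correlated across genes with Pearson's r from 0.957 to 0.960; genes are not independent replicates, and no test was made.

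Of these genes 432 (7.97%) differed by more than 2-fold between the highest and lowest library, and 72 by more than 3-fold. Of the 72, 50 were highest in replicate 2 and 49 were lowest in replicate 3, against 1088 and 2677 of all 5421 genes. In the same 72, 21 were acinar markers, 5 belonged to the Reg family and 46 to neither list. The 46 include Gm5771, Gm10334 and 2210010C04Rik, which lie near Prss1 and Try4 on chromosome 6 and were highest in replicate 2. Gm10334 stood at 25.7, 148 and 22.9 CPM. The acinar list may thus not hold every acinar transcript. Of the 432, 310 were highest in replicate 1, where 66% of all 5421 genes were highest. The 10 most variable genes with a known name were Vip, Sprr1a, Slc16a3, Prss1, Foxq1, Ly6a, Try4, Spink1, Tead2 and Clps. Prss1, Try4, Spink1 and Clps (procolipase) are acinar, and Prss1 and Try4 are close copies within the trypsinogen family, with 57.7% and 42.3% of their windows shared, so that their levels are uncertain. Ly6a, a surface antigen, stood at 10.3, 62.5 and 10.3 CPM, Sprr1a, a protein of squamous epithelia, at 7.87, 21.5 and 0.789 CPM, and Foxq1, a forkhead factor, at 11.2, 18.6 and 1.84 CPM.

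The steadiest of the genes with at least 100 CPM was Zfand6, a zinc finger protein, at 101, 100.4 and 102 CPM. Ostc, a subunit of the oligosaccharyltransferase complex that glycosylates proteins entering the endoplasmic reticulum, stood at 193.5, 193.2 and 190.5 CPM, and Eif2s2, the beta subunit of the initiation factor eIF2, at 185, 189 and 187 CPM. Morf4l2, Mrfap1, Rps27a, Metap2, Swi5 and Laptm4a were also among the 10 steadiest, and Rps27a shares most of its 3′ windows (84.6%) with other genes. These genes were picked for the smallest spread of 3 values, so their spread can lie below counting error. For Zfand6 the SD was 0.603 CPM, while counting alone gave a median CV of 3.96% for genes with at least 100 CPM. Without sub-library 3 of replicate 1, the mean was 96.7 ± 7.50 CPM for Zfand6, 188 ± 7.24 for Ostc and 263 ± 3.75 for Mrfap1. The steadiness with all sub-libraries held for CPM and not for TMM. By TMM scaling the CV of Zfand6 was 10.6% and that of Ostc 10.0%, and Zfand6 ran from 89.7 in replicate 1 to 111 in replicate 3.

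**Figure D5:**
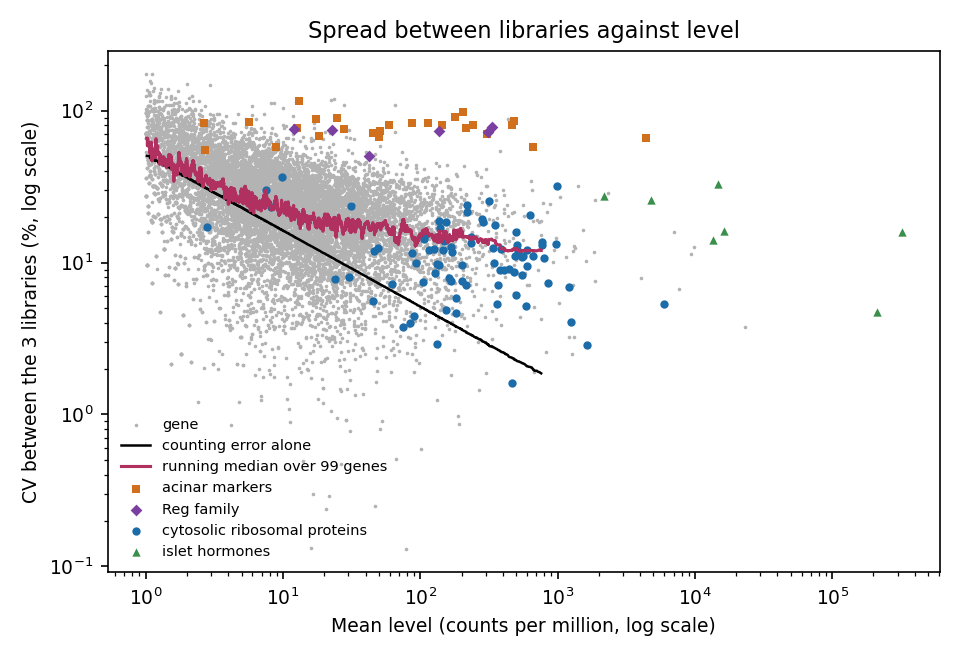
CV between the 3 libraries (%, log scale) against mean level (CPM, log scale) for genes of at least 1 CPM (grey), with the running median (red) and the CV expected from counting error alone (black), and with the members of 4 lists marked. The acinar markers and Reg genes lie above the running median where it is drawn, most ribosomal protein genes lie near or below it, and the hormone genes lie to the right of the end of both lines, at a CV of 4.72% to 32.8%.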

How the data were processed

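RNA of 3 islet cultures at 11.8 mM glucose was measured by CEL-Seq2. The authors deposited read counts for every gene in every barcoded sub-library. The submitters' processing notes list cutadapt, TopHat, HTSeq and DESeq2 as tools, and GRCm38.p4 as the genome build. Versions, annotation and strand setting were not given in the sources used here. Reads were not collapsed by their 6-base molecular identifiers, since a gene reached 605402 counts in a sub-library where 4096 identifiers are possible, so intervals and floors cover counting error only.

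The 9 sub-library columns were assigned by the sample names in the deposited sheet and summed per sample. A further 30 value columns matched no sample's labels and were left aside. Of 22145 rows, 92 spike-ins and 5 summary lines (22.3% to 29.9% of all counted reads) stayed out of library sizes. Symbols were found for 21858 genes in GENCODE M21 and not for 190. Spread was given as SD and CV over 3 libraries and as edgeR 4.0.16 dispersions (R 4.3.3), fitted with an intercept for libraries and a term per sample for sub-libraries. With 1 condition there was no test. Windows of 50 bases, every 10 bases in the last 300 bases of each gene's transcripts, were looked up on both strands in all other genes. Only exact matches to annotated transcripts were counted. The dispersion fit and the search for sub-library departures were also run on simulated data, and the outcomes are not given here. For the dispersion fit, the simulated sub-libraries had no spread beyond counting error, unlike the real ones.

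Genes named were the 20 most abundant, the 4 most abundant members of each list, the hormones, Mafa, Slc2a2, Ucn3, Pdx1, Ldha and Slc16a1, and the 10 most and 10 least variable, without predicted genes and pseudogenes. Some of these are printed, and genes named beyond this rule were chosen after their values were seen. Members and lists were chosen with earlier results of these data known. Alternatives were TMM, DESeq2 1.42.0 size factors, division by exonic length, other denominators and filters, equal depth, medians of sub-libraries and each library left out. Leaving out sub-library 3 of replicate 1, TMM scaling of summed list shares and leaving 3 enzymes out of the granule groups were added after the data were seen.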

Additional observations from a re-analysis of the deposited data

How the results depend on the processing

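Division by exonic length moved the insulin share to 63.5%, the granule share to 1.04% and the mitochondrial mRNA share to 10.1%. Out of counts without Ins1 and Ins2, the granule, mitochondrial and acinar shares were 4.39%, 13.2% and 1.68%, and 3881 genes held 90% of the counts. Genes with at least 10 counts numbered 9464 by mean, against 13605 with at least 1. The median CV was 29.3% with no filter beyond 1 count and 14.2% for genes of at least 100 CPM. Leaving out each library in turn gave an insulin share of 51.5% to 55.6%, a granule share of 1.85% to 2.16%, a mitochondrial share of 5.88% to 6.29%, an acinar share of 0.470% to 0.986%, 13447 to 13725 genes with a count, 1632 to 1919 genes for 90% of the counts, and a median CV of 10.9% (without replicate 1) to 17.4%. The acinar share was 0.470% without replicate 2. The cause of these shifts was not tested. Without sub-library 3 of replicate 1 the 7 main values stayed within their spread, while the mean level of 11 of the 168 named genes moved by more than their SD, Ins1 to 226863 CPM. TMM and DESeq2 size factors left the median CV within its spread. At equal depth 13527, 13585 and 13214 genes had a count. No paired analysis was possible because the values describe 1 group and come from no test.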

Other observations

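Several groups outside the account above were measured in the same libraries. Of 23 antioxidant and glutathione genes, Gpx3, a secreted glutathione peroxidase, was the most abundant at 531, 433 and 326 CPM in replicates 1, 2 and 3. The metallothionein genes Mt1 (233, 402 and 332 CPM) and Mt2 (71.1 to 146 CPM), which bind zinc and respond to it, were each lowest in replicate 1. Subunits of the V-ATPase, the proton pump that acidifies granules, took 0.147%, 0.138% and 0.137% of the gene counts, with Atp6v0b at 329, 296 and 272 CPM, while Atp6v0c had a single count over the 3 libraries, with 33.3% of its windows shared with other genes.

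Immediate early genes took 0.0509%, 0.0507% and 0.0461%, led by Jund at 246, 219 and 161 CPM, and Fos stood at 15.4, 17.5 and 20.8 CPM. Among interferon and chemokine genes H2-D1, a class I histocompatibility gene, held 62.2% of the counts at 272, 218 and 153 CPM, while Ccl2, a monocyte chemokine, stood at 12.4, 3.73 and 1.84 CPM. Markers linked to beta cell dedifferentiation were low, and none of 11 reached 10 CPM. Sox9, a factor of duct and progenitor cells, stood at 10.3, 7.90 and 4.21 CPM, Aldh1a3, an aldehyde dehydrogenase, at 5.45, 5.26 and 2.89 CPM, and Nanog had no count.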
